A study of Mus musculus with 16 samples.

Results

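The signals of 10 genes for acute-phase and antimicrobial secreted proteins were followed through 24 h of lipopolysaccharide (LPS) in bone-marrow-derived macrophages. They are Saa3, Saa1, Saa2, Hp, Lcn2, Ptx3, S100a8, S100a9, Slpi and Camp, taken as every probe whose gene name in the deposited scanner files is one of these symbols. They have 13 of the 41077 probes with a value on all arrays, and 12 of the 13 were well above background on both arrays of at least 1 group. All 10 genes were among the 17659 genes tested. The series holds 16 single-colour arrays of total RNA, 2 for each of 8 groups. Bone marrow cells of male C57BL/6Jax mice, wild type (WT) or miR-155 KO, were kept for 9 days with M-CSF at 10 ng/mL, a cytokine under which marrow precursors become macrophages. Each genotype was taken unstimulated (0 h) and after 6, 12 and 24 h in 100 ng/mL LPS, a cell wall component of Gram-negative bacteria that is sensed through the receptor TLR4. The sources used here do not say how the knockout was made, or whether the 2 arrays of a group came from separate mice or cultures. The p-values therefore measure only the spread between these arrays, which may be technical. The array has no probe named for miR-155 or its host transcript, so the knockout itself was not checked on it.

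Acute-phase proteins are made in large amounts during infection and injury, mostly by the liver under the influence of interleukin 6 and interleukin 1, but several of them are also made locally by macrophages and epithelia. Antimicrobial proteins act on microbes more directly, by withholding iron, zinc or manganese, by damaging membranes or by marking the microbe for uptake, and many are stored ready-made in neutrophil granules. The genes described here therefore cover proteins that a macrophage makes in response to LPS as well as proteins typical of another cell of the marrow, the neutrophil.

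The serum amyloid A genes are close relatives, so the probe sequences are shown first, because the signals of Saa3 and Saa1 depend on which transcript each probe binds. They are 60 bases long, and the array file places them on mm9. The Saa3 probe lies at chr7:53968031-53968090. The first Saa1 probe, which had the higher mean and stands for the gene, lies at chr7:53996070-53996129, and the second spans chr7:53996167-53996639.
Saa3 probe: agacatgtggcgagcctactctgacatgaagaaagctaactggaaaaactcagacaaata
Saa1 first probe: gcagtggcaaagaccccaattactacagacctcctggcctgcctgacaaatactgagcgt
Saa1 second probe: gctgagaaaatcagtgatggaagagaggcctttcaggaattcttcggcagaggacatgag
The array file lists the Saa1 transcript accession for the Saa3 probe too. The longest run of bases shared between the Saa3 probe and the first Saa1 probe was 8 bases, and the other pairs among these probes and the Saa2 probe shared 5 to 7 bases. Whether any of these probes also binds a relative's transcript was not tested.

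The promoters of the 5 genes called higher in every LPS comparison are shown next, since the main result below rests on them; their time courses differ, Ptx3 having its highest signal at 6 h. They are the 250 bases before the start of each gene in RefSeq, on GRCm38.p6 and on the gene's own strand. Capitals mark matches to TTGCNNAA on either strand, a pattern of the C/EBP family of factors, which are known for their part in acute-phase gene control. The windows are chr7:46715677-46715926 for Saa3 (minus strand), chr7:46742981-46743230 for Saa1 (minus strand), chr7:46751583-46751832 for Saa2 (plus strand), chr2:32387740-32387989 for Lcn2 (minus strand) and chr3:66219637-66219886 for Ptx3 (plus strand).
Saa3: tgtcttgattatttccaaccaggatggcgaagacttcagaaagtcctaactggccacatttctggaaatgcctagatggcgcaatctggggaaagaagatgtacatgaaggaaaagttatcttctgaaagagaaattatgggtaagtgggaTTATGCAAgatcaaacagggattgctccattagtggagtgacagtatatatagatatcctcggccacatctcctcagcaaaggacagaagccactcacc
Saa1: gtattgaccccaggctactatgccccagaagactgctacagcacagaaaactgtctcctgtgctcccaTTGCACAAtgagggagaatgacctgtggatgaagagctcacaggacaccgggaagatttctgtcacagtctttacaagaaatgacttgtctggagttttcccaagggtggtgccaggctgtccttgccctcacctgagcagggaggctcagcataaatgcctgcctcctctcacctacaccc
Saa2: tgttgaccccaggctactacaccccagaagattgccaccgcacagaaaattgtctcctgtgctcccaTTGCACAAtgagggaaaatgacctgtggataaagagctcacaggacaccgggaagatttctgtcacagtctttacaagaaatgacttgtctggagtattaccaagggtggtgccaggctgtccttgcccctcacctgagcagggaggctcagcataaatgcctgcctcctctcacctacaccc
Lcn2: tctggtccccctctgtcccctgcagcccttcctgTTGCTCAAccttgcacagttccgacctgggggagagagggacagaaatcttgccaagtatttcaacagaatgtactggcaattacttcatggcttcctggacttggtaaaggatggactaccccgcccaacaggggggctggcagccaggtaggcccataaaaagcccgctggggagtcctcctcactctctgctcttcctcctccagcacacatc
Ptx3: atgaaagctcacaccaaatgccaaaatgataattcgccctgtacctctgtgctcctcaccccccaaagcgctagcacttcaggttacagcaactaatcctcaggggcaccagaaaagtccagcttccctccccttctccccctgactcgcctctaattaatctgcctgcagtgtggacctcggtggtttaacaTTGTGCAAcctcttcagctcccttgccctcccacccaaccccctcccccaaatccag
Saa1 and Saa2 lie next to each other in opposite orientation, and their windows were identical at 238 of 251 aligned positions (94.8%). Both held the match TTGCACAA, starting at base -182 in Saa1 and at base -183 in Saa2. The Saa3 window was identical to that of Saa1 at 132 of 263 aligned positions (50.2%) and had its match nearer the start, from base -99. Over windows of 250 bases before to 50 after the start, TTGCNNAA was found for 7 of the 9 genes with a RefSeq entry, and for 10.8% of all 32851 promoters in the table. The genes without a match were S100a8 and Camp, and Hp was not in the table. A second C/EBP pattern, TTNNGNAAT, which can overlap the first, was found for 4 of the 9 genes (Saa1, Saa2, S100a9 and Slpi) and 11.5% of all promoters. The broad NF-kB pattern, GGG and CC with any 5 bases between them, was found for 5 of the 9 genes (Saa1, Saa2, Lcn2, Ptx3 and Camp) and 50.8% of all promoters. The stricter NF-kB pattern, GGG and TTTCC with any 2 bases between them (1.63% of all promoters) and the STAT pattern TTCNNNGAA (8.30%) were found for 0 of the 9. Both strands were searched, and a match is a description of the letters in the window only.

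The replicate number in the labels goes with the scan session in the file headers: the 8 arrays numbered 1 were scanned in session 1 and the 8 numbered 2 in session 2. Every array held the macrophage markers, of which 13 or 14 of 14 were well above background. The session touched most of the 10 genes. In the fit with a term for the session, 8 of the 10 were lower in session 2, where 34.5% of all genes were lower, and the remaining 2, Lcn2 (-1.08 ± 0.48) and Ptx3 (-0.41 ± 0.23), did not pass. The largest differences between sessions were those of S100a9 (-4.22 ± 0.31 on the log2 scale), S100a8 (-3.85 ± 0.21), Hp (-3.33 ± 0.20) and Camp (-3.05 ± 0.25). Listed markers of several cell types were lower in session 2 as well. They were 6 of the 14 tested for macrophages, 4 of 7 for dendritic cells, 4 of 4 for T and NK lymphocytes and 2 of 4 for B lymphocytes. In turn 3 macrophage and 1 dendritic marker were higher, and of 6 stromal markers 3 were higher and 1 lower. Of 18 listed neutrophil markers other than these genes, 11 were tested and 8 were lower in session 2. Among those 8 were Ngp (-4.00 ± 0.40), Ltf (-2.72 ± 0.29) and Mpo (-1.40 ± 0.18), which are granule proteins of neutrophils and their precursors. Of the defining markers, Elane and Ly6g did not pass the filter on dim probes, Retnlg was well above background on 3 of 16 arrays, and Mpo on all 16. The log2 of the summed signal of these 11 markers ran from 1.75 to 3.13 in session 1 and from 0.38 to 2.51 in session 2, and 8 to 11 of them were well above background on an array of session 1 and 4 to 10 on one of session 2. At 24 h the sum was largely Csf3r, a marker that rose after LPS. Csf3r alone read 1.60 and 2.38 in WT in sessions 1 and 2, where the sums were 2.04 and 2.48. In KO it read 1.22 and 2.18, with sums of 1.75 and 2.36. The sum after LPS therefore says little about the other markers. The part of the 11 markers in the session difference was not tested. The counts of genes called are therefore given without and with the session term, and within-session values where the sessions differ.

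**Figure D1:**
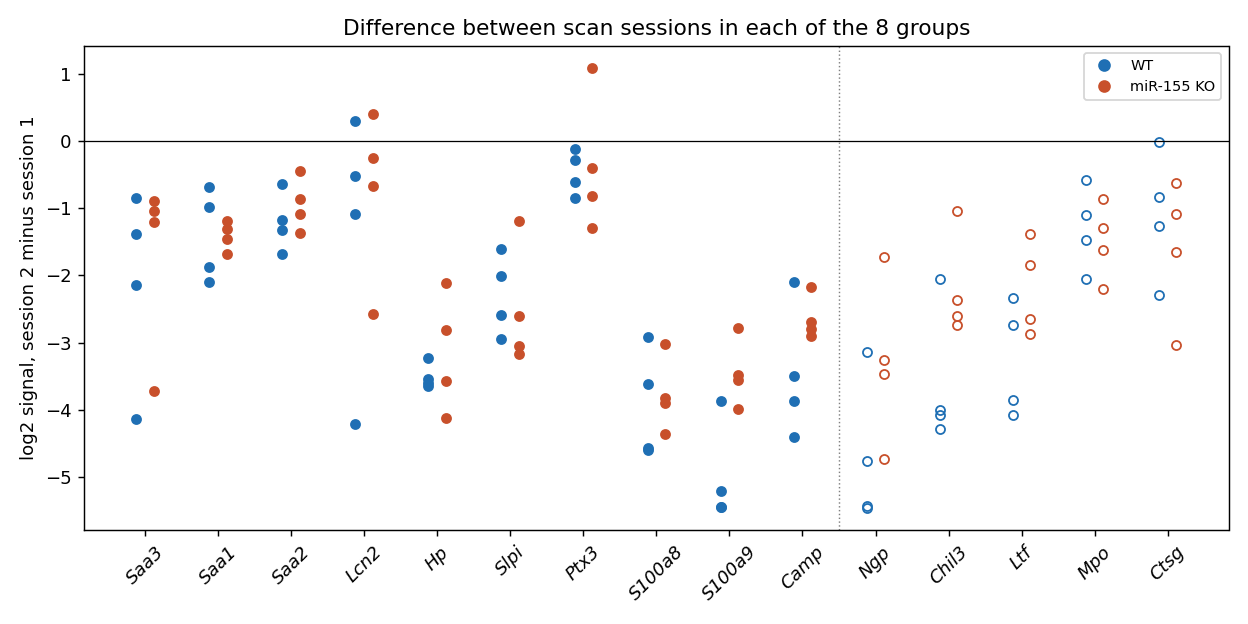
Log2 signal of the second session minus that of the first, in each of the 8 groups, for the 10 genes (filled points) and 5 genes of neutrophil granules and related products (open points). Saa3, Saa1, Saa2, S100a8, S100a9, Hp, Slpi and Camp are below 0 in all groups, while Lcn2 and Ptx3 have groups on both sides of 0. The 5 genes are a selection. Csf3r and Prtn3, neutrophil markers that were tested but are not shown, had groups on both sides of 0, and Prtn3 was near background.

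LPS raised the 3 serum amyloid A genes and Lcn2 at every time in both genotypes, and Ptx3 at 6 and 12 h. In limma's test without the session, 5 of the 10 genes were higher at 6 h in WT macrophages, where 12.6% of all genes were higher. The same 5 genes, and no others of the 10, were higher at 12 h in WT (background 9.69%), at 24 h in WT (5.62%), at 6 h in KO (12.3%), at 12 h in KO (9.50%) and at 24 h in KO (4.96%). The count at 24 h includes Ptx3, whose signal was near background at both times, so that no rise can be bounded there. The median difference over the 10 genes was between 4.17 and 4.86 on the log2 scale in these 6 comparisons, and over all genes between -0.03 and 0.06. None of the 10 was lower (0 in limma without the session, and 0 at an unadjusted p under 0.05). Of all genes 12.8%, 9.62% and 5.38% were lower in WT at 6, 12 and 24 h, and 13.8%, 9.91% and 4.94% in KO. A count of 0 among 10 genes is close to those shares. With the session term 7 genes were higher in each comparison, Hp and Slpi joining the 5, except that Camp made 8 at 12 h in KO. The background of genes higher then was 23.6%, 18.7% and 13.3% in WT and 21.0%, 19.6% and 11.6% in KO. S100a9 alone was lower with the session term, at 24 h in both genotypes, where 14.1% of all genes were lower in WT and 12.4% in KO. The 3 comparisons within a genotype share the same 0 h arrays.

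**Figure D2:**
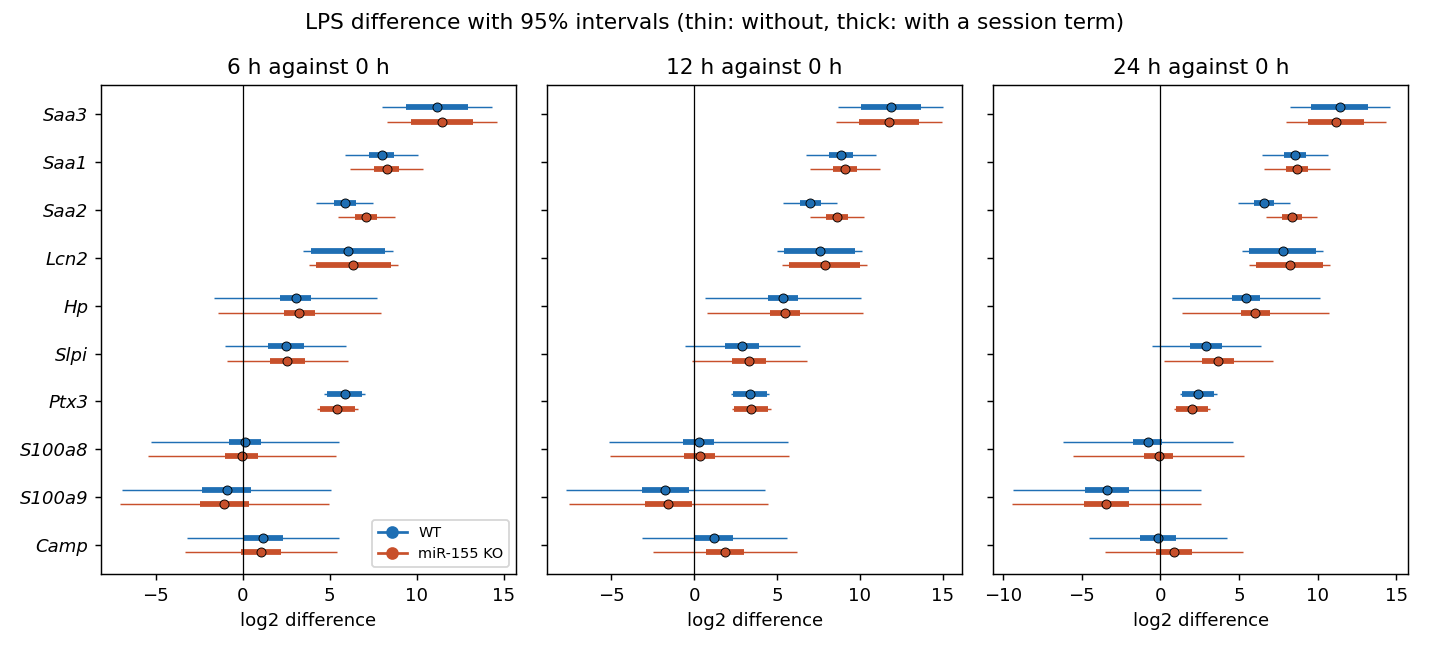
Log2 difference between LPS and 0 h for each gene at 6, 12 and 24 h in WT and miR-155 KO macrophages, with 95% intervals from the fit without (thin line) and with (thick line) a session term. The intervals of Saa3, Saa1, Saa2, Lcn2 and Ptx3 lie above 0 in both fits, and those of S100a8 include 0 in both.

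**Figure D3:**
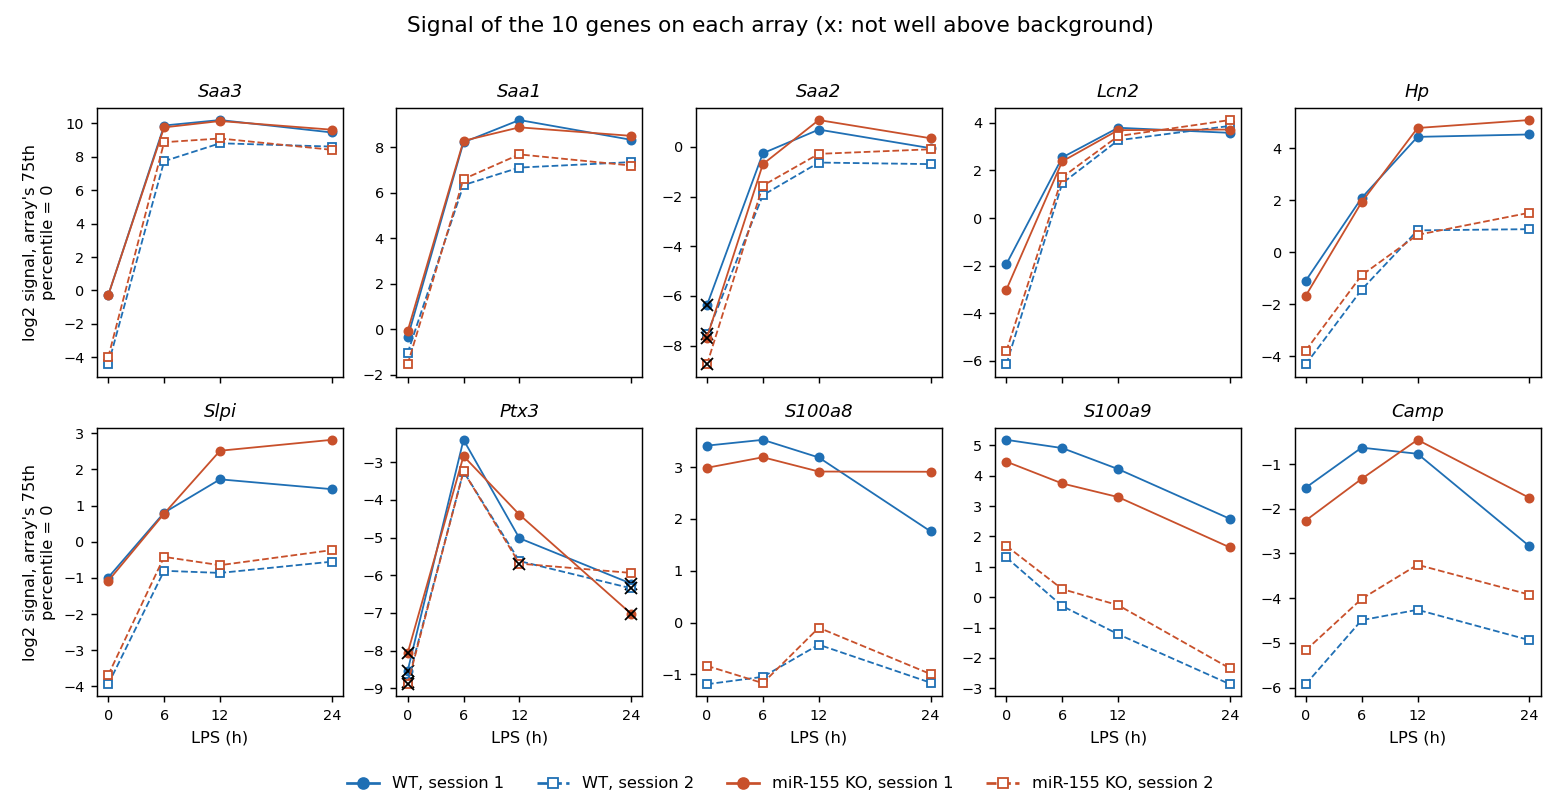
Log2 signal of each gene on every array against hours of LPS, scaled so that the array's 75th percentile is 0, with filled points for session 1, open points for session 2 and crosses where the probe was not well above background. Saa3, Saa1, Saa2 and Lcn2 stay high to 24 h, Ptx3 is highest at 6 h, and S100a9 is lowest at 24 h on all 4 lines.

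Saa3 encodes the serum amyloid A protein that macrophages and fat tissue make, a lipid-binding protein of the acute phase. Its log2 signal in unstimulated WT cells was -0.29 and -4.42 in sessions 1 and 2, and it was 9.87 and 7.74 at 6 h, 10.20 and 8.81 at 12 h and 9.46 and 8.61 at 24 h. In KO cells it was -0.28 and -3.99 at 0 h, 9.76 and 8.87 at 6 h, 10.14 and 9.10 at 12 h and 9.62 and 8.42 at 24 h. All 12 LPS arrays were far above all 4 unstimulated arrays, and the arrays of session 2 were the lower ones in each group. The difference from 0 h in WT was 11.16 ± 1.43 at 6 h (2292-fold, adjusted p = 0.000362), 11.86 ± 1.43 at 12 h and 11.39 ± 1.43 at 24 h. In KO it was 11.45, 11.75 and 11.16 at the same times, each ± 1.43, with adjusted p between 0.000313 and 0.000816. With the session the SE was 0.80 and the adjusted p between 5.26e-06 and 2.1e-05 over the 6 comparisons. The sessions differed most at 0 h, so the size of the rise depended on the session: at 6 h in WT it was 10.16 in session 1 and 12.16 in session 2. Leaving out the WT 0 h array of replicate 2 lowered the 6 h difference to 9.09, and leaving out that of replicate 1 raised it to 13.23, both past the threshold.

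Saa1 and Saa2 encode the acute-phase forms of serum amyloid A, which in the liver response are carried on high-density lipoprotein. The first Saa1 probe read -0.37 and -1.06 at 0 h in WT, and then 8.22 and 6.34 at 6 h, 9.20 and 7.11 at 12 h and 8.33 and 7.35 at 24 h. In KO cells it read -0.09 and -1.55 at 0 h, 8.28 and 6.60 at 6 h, 8.87 and 7.68 at 12 h and 8.50 and 7.19 at 24 h. The LPS arrays were all above the unstimulated ones. The WT difference was 7.99 ± 0.94 at 6 h (254-fold, adjusted p = 0.000218), 8.86 ± 0.94 at 12 h and 8.55 ± 0.94 at 24 h, and the KO difference was 8.26, 9.10 and 8.67. With the session the SE was 0.32 and all 6 passed. The second Saa1 probe, whose sequence lies further upstream in the transcript, was not well above background on any 0 h array, so only a bound on its rise can be given. Such a bound sets the mean of the LPS arrays against the lowest signal that was still well above background on each 0 h array, or against the probe's own signal there if that was higher. By that bound the second probe rose at least 10.8-fold at 6 h, 29.0-fold at 12 h and 19.7-fold at 24 h in WT, and at least 10.52-fold, 26.4-fold and 25.3-fold in KO. Its adjusted p was between 0.000459 and 0.00143 in a fit of all detected probes, so both probes rose at every time in both genotypes. The second probe was far dimmer after LPS: its mean at 12 h was -1.67 in WT and -1.54 in KO. The first probe's mean was 8.15 and 8.28 there. The Saa1 level and the size of its rise thus depend on the probe, and the reason for the gap was not tested.

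The Saa2 probe was not well above background on any of the 4 unstimulated arrays, which read -6.37, -7.55, -7.67 and -8.76. In WT it read -0.26 and -1.94 at 6 h, 0.70 and -0.63 at 12 h and -0.05 and -0.69 at 24 h. The KO arrays read -0.69 and -1.56, 1.08 and -0.28, and 0.35 and -0.10 at those times. The rise was thus at least 41.2-fold at 6 h, 90.3-fold at 12 h and 68.2-fold at 24 h in WT, with adjusted p of 0.000325, 0.000151 and 0.000365. In KO it was at least 35.1-fold, 101.1-fold and 83.6-fold, with adjusted p of 0.000103, 4.39e-05 and 0.000108. Saa2 was higher at 12 h than at 6 h in the fit with the session, by 1.13 ± 0.29 in WT (adjusted p = 0.0353) and 1.53 ± 0.29 in KO (adjusted p = 0.0104). Of all genes, 5.47% in WT and 6.22% in KO were higher in that comparison and fit. Without the session neither passed (adjusted p = 0.614 and 0.410). With normexp background correction the KO rise at 6 h was 2.24 and did not pass (adjusted p = 0.0780), while the other 5 comparisons with 0 h did.

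Lcn2 encodes lipocalin 2, which binds bacterial siderophores and so withholds iron. In WT it read -1.94 and -6.15 at 0 h, 2.54 and 1.46 at 6 h, 3.79 and 3.27 at 12 h and 3.58 and 3.87 at 24 h. In KO the signal was -3.01 and -5.59 at 0 h, 2.38 and 1.71 at 6 h, 3.69 and 3.44 at 12 h and 3.72 and 4.12 at 24 h. The arrays of the 2 sessions lay apart at 0 h and close together at 12 and 24 h, and no LPS array overlapped an unstimulated one. The difference from 0 h in WT was 6.05 ± 1.15 at 6 h (adjusted p = 0.00348), 7.57 ± 1.15 at 12 h (adjusted p = 0.00134) and 7.77 ± 1.15 at 24 h (218-fold, adjusted p = 0.00179). In KO the difference was 6.35, 7.87 and 8.22, of which that at 12 h was 4.39 with normexp background correction and did not pass (adjusted p = 0.0654). With the session the SE was 0.96 and all 6 passed. Within session 1 the WT rise at 24 h was 5.51 and within session 2 it was 10.02, following the gap at 0 h. Without the WT 0 h array of replicate 2 that value was 5.66, and without that of replicate 1 it was 9.87.

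Ptx3 encodes pentraxin 3, a soluble pattern recognition protein that marks microbes for uptake. It had its highest signal at 6 h and fell afterwards. Both 0 h arrays of each genotype were not well above background, reading -8.54 and -8.83 in WT and -8.07 and -8.89 in KO. At 6 h the probe read -2.40 and -3.25 in WT and -2.84 and -3.24 in KO, at 12 h -5.02 and -5.62 in WT and -4.39 and -5.69 in KO, and at 24 h -6.22 and -6.34 in WT and -7.02 and -5.94 in KO. The 6 h arrays did not overlap those of any other time, and at 24 h both WT arrays and 1 of the 2 KO arrays were again not well above background. The rise was at least 12.99-fold at 6 h in WT (adjusted p = 4.21e-05) and 9.31-fold in KO (adjusted p = 6.6e-05), and at least 2.31-fold at 12 h in WT (adjusted p = 0.00154). At 12 h in KO, where 1 of the 2 arrays was well above background, no bound is given (adjusted p = 0.00134).

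From 6 h to 24 h Ptx3 fell at least 9.35-fold in WT, by 3.46 ± 0.53 on the measured log2 values (adjusted p = 0.00346), and by 3.44 ± 0.53 in KO (adjusted p = 0.00275). It was the only 1 of the 10 genes lower at 24 h than at 6 h without the session, where 4.86% of all genes were lower in WT and 5.80% in KO. The fall from 6 h to 12 h passed in WT (-2.49 ± 0.53, adjusted p = 0.0463; background of lower genes 0.646%) and missed the threshold in KO (-2.0 ± 0.53, adjusted p = 0.0951; background 0.640%), while with the session it passed in KO too (adjusted p = 0.0220). The second Ptx3 probe did not pass for that fall in WT without the session (-2.32 ± 0.48, adjusted p = 0.0513). From 6 to 24 h it fell at least 8.61-fold in WT and 8.26-fold in KO, since it was not well above background on any 24 h array. The probes disagreed at 24 h against 0 h in WT, where the first passed (2.40 ± 0.53, adjusted p = 0.0146) and the second did not (0.94 ± 0.48, adjusted p = 0.279). Since both WT groups in that comparison were not well above background, no fold is given for it. In KO the first probe's 24 h difference (2.0 ± 0.53, adjusted p = 0.0379) lost its call without either array of WT 0 h, WT 24 h, KO 0 h or KO 6 h, or without the KO 24 h array of replicate 2, where it was 1.46 (adjusted p = 0.282). Without the other KO 24 h array it was 2.54 and passed (adjusted p = 0.0339). In WT the call was lost without any 1 of the 4 arrays compared, the value being 2.26 to 2.55 (adjusted p up to 0.103). With normexp background correction none of the Ptx3 comparisons with 0 h passed: the 6 h difference was then 1.68 in WT (adjusted p = 0.651) and 1.11 in KO. The fall from 6 to 24 h was lost too, at -1.19 in WT and -0.43 in KO.

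Hp encodes haptoglobin, which binds free haemoglobin. Its signal climbed from 0 h to 12 h in each session, and session 2 minus session 1 ran from -4.12 to -2.11 over the 8 groups. In WT it read -1.10 and -4.32 at 0 h, 2.09 and -1.44 at 6 h, 4.45 and 0.84 at 12 h and 4.54 and 0.89 at 24 h. The KO values were -1.68 and -3.79, 1.93 and -0.89, 4.79 and 0.67, and 5.09 and 1.52. The 12 and 24 h arrays were all above the 0 h arrays, while the 6 h arrays of session 2 overlapped the 0 h arrays of session 1. Without the session none of the 6 differences passed, for example 5.43 ± 2.11 at 24 h in WT (adjusted p = 0.143) and 6.04 ± 2.11 in KO (adjusted p = 0.111). With the session the SE was 0.40 and all 6 passed, with adjusted p of 2.02e-05 and 1.54e-05 for those at 24 h. With each array scaled to its median, 3 of them passed without the session, at 12 h in both genotypes and at 24 h in KO (adjusted p between 0.0412 and 0.0443). Within session 1 the 24 h rise was 5.64 in WT and 6.77 in KO, and within session 2 it was 5.21 and 5.31. Hp rose on from 6 to 12 h in the fit with the session, by 2.32 ± 0.40 in WT (adjusted p = 0.00816) and 2.21 ± 0.40 in KO (adjusted p = 0.00905), the other of the 10 genes beside Saa2 to do so. From 6 to 24 h it rose by 2.39 ± 0.40 in WT (adjusted p = 0.00219) and 2.79 ± 0.40 in KO (adjusted p = 0.000848), where 13.9% and 16.2% of all genes were higher. Saa2 was the other of the 10 genes higher in that comparison, in KO, by 1.25 ± 0.29 (adjusted p = 0.00898).

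Slpi encodes the secretory leukocyte protease inhibitor, which blocks neutrophil elastase and has antimicrobial activity of its own. The probe used read -0.99 and -3.94 at 0 h in WT, 0.80 and -0.80 at 6 h, 1.72 and -0.86 at 12 h and 1.45 and -0.55 at 24 h. In KO it read -1.08 and -3.69, 0.78 and -0.42, 2.52 and -0.65, and 2.82 and -0.23. All LPS arrays were above all unstimulated ones, and each was above the 0 h array of its own session and genotype by 1.79 or more. Without the session the difference did not pass at any time, for example 2.92 ± 1.56 at 24 h in WT (adjusted p = 0.299) and 3.68 ± 1.56 in KO (adjusted p = 0.197). With the session it was significant at every time, with an SE of 0.46 and adjusted p between 0.000406 and 0.00187. The other Slpi probe was well above background on 1 of the 16 arrays, did not pass the filter and was not tested.

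S100a8 and S100a9 encode the subunits of calprotectin, which binds zinc and manganese and is among the most abundant proteins of neutrophils and young monocytes. Within each session S100a9 fell after LPS. It read 5.18 and 1.31 at 0 h in WT, 4.91 and -0.29 at 6 h, 4.22 and -1.22 at 12 h and 2.58 and -2.87 at 24 h. The KO arrays read 4.47 and 1.69, 3.75 and 0.27, 3.30 and -0.26, and 1.64 and -2.35. Each step in time was downward within each session and genotype. At each time the arrays of session 1 were above those of session 2. Across times, the only crossing was KO at 24 h in session 1 (1.64), which lay below KO at 0 h in session 2 (1.69). At 24 h the difference was -3.39 ± 2.70 in WT (adjusted p = 0.517) and -3.43 ± 2.70 in KO (adjusted p = 0.550) without the session. With it the SE was 0.63 and both passed (adjusted p = 0.00366 in WT and 0.00365 in KO). Within session 1 the change was -2.60 in WT and -2.83 in KO, and within session 2 it was -4.18 and -4.04.

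S100a8 read 3.41 and -1.19 at 0 h in WT, 3.53 and -1.05 at 6 h, 3.19 and -0.43 at 12 h and 1.76 and -1.16 at 24 h. In KO the signal was 2.99 and -0.83, 3.19 and -1.17, 2.91 and -0.10, and 2.91 and -0.99. The sessions formed separate bands, and from 0 to 24 h the change was -1.65 in session 1 of WT and between -0.16 and 0.03 in the other 3 series. At 24 h the difference was -0.81 in WT and -0.12 in KO, and no LPS comparison passed in either fit. With the session, the 95% interval at 24 h was -1.75 to 0.13 in WT and -1.06 to 0.82 in KO. Whether S100a8 and S100a9 responded differently was not tested.

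Camp encodes the cathelicidin precursor, a membrane-damaging peptide stored in neutrophil granules. In WT it read -1.53 and -5.93 at 0 h, -0.63 and -4.49 at 6 h, -0.77 and -4.26 at 12 h and -2.84 and -4.94 at 24 h. The KO values were -2.26 and -5.17, -1.33 and -4.02, -0.46 and -3.25, and -1.76 and -3.92. Both sessions were higher at 6 and 12 h than at 0 h, and at 24 h the WT arrays were below 0 h in session 1 and above it in session 2. Of the 6 comparisons with 0 h, 1 passed, and in the fit with the session alone: 1.86 ± 0.51 at 12 h in KO (adjusted p = 0.0169, against 0.586 without the session). At 12 h in WT the difference was 1.21 ± 0.51 in that fit (adjusted p = 0.0889).

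S100a9 was most like the neutrophil granule gene Ngp across the arrays. Its closest neighbour among the tested genes with an ordinary symbol, by Pearson correlation of the log2 values over the 16 arrays, was Ngp (r = 0.99, and 0.98 after each session was centred), followed by Chil3 (0.97) and Itgax (0.97). The r for Ngp includes arrays where Ngp was not well above background, those of session 2 at 12 and 24 h in both genotypes. Ngp and Chil3, which encodes a chitinase-like protein of macrophages and neutrophils, are on the lists of antimicrobial genes or neutrophil markers. Itgax is on neither of these lists and was well above background on every array. In WT it read 4.69 and 2.65 at 0 h in sessions 1 and 2, and 2.55 and 0.23 at 24 h. In KO Itgax was also lower at 24 h than at 0 h in each session. With the session, 4 of the 11 neutrophil markers tested were lower at 24 h in each genotype (14.1% of all genes in WT and 12.4% in KO), and 1 was higher in WT (13.3% of all genes) and 0 in KO. The marker that was higher is Csf3r, the receptor for granulocyte colony-stimulating factor, at 2.42 ± 0.68 with the session (adjusted p = 0.0263), and it passed at 12 h in both genotypes and both fits. Without the session 0 were lower at 24 h in WT and 1 in KO, Prtn3, which was not well above background on either KO 24 h array. Ngp and Ltf were among those lower with the session in both genotypes, but neither was well above background at 24 h in session 2. Within session 1, where they were measured, Ngp changed from 0 to 24 h by -2.57 in WT and -2.12 in KO, and Ltf by -2.56 and -2.43. The part of neutrophil-lineage RNA in the signals of S100a8, S100a9 and Camp was not tested, and in such bulk RNA fewer cells of a type and less RNA per cell cannot be told apart.

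**Figure D4:**
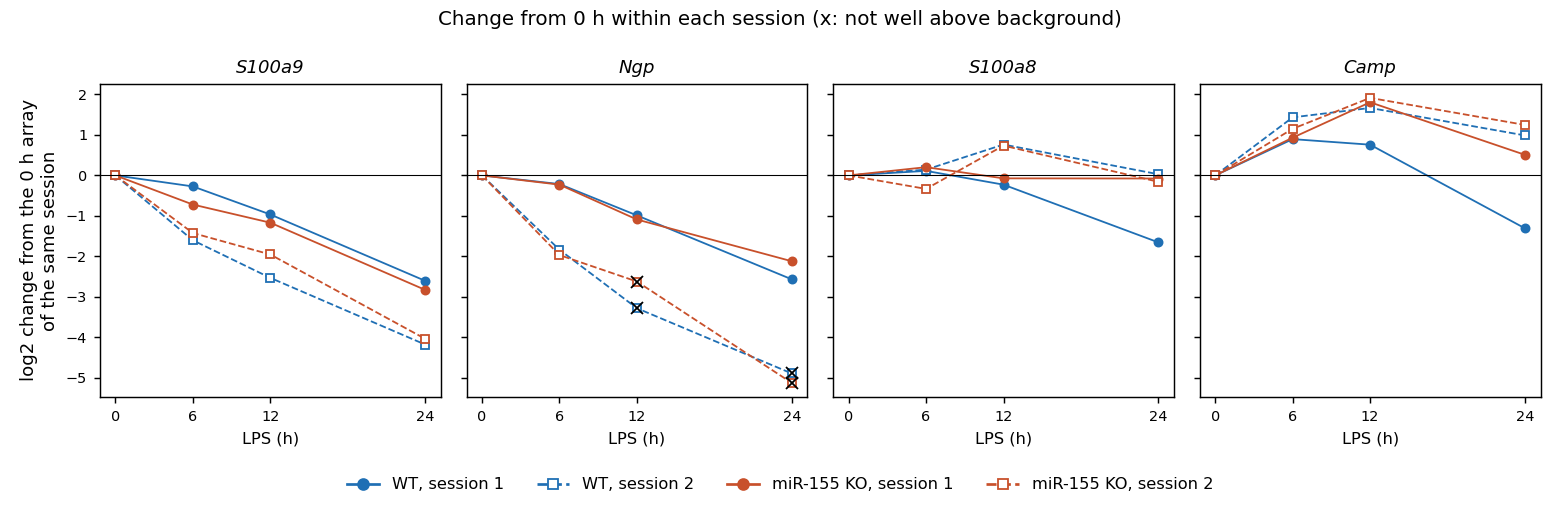
Log2 change from the 0 h array of the same session and genotype for S100a9, the neutrophil granule gene Ngp, S100a8 and Camp, against hours of LPS, with crosses where the probe was not well above background. S100a9 and Ngp go down on all 4 lines, to between -4.18 and -2.60 for S100a9 at 24 h, while Camp is above 0 at 6 and 12 h on all 4.

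The closest genes to the other 9 were found in the same way. Over the 16 arrays, which share the session and time structure, Saa3 was most like Prdx5, Ccl5 and Acod1 (r = 0.99 each). Saa1 was most like Ggct, Prdx5 and Atp6v0a2, Saa2 like Pgap2, Fpr1 and Prdx5, and Lcn2 like Rtn2, Pgap2 and Klra2, all with r of 0.98 or 0.99. Ptx3 was most like Src, Tlr6 and Cers6 (0.98, 0.97 and 0.97). Hp and Slpi shared their closest neighbour, Gp6 (0.97 and 0.99). Camp was most like Wfdc21, Sdc1 and Htr1f (0.97, 0.96 and 0.96), and S100a8 like Hcfc1, Mettl21c and Rmrp. The likeness of S100a8 to those 3 lay largely in the session, since centring each session took r from 0.98, 0.98 and 0.97 to 0.42, 0.67 and 0.50. For Camp with Wfdc21, Sdc1 and Htr1f the same centring took r to 0.85, 0.80 and 0.78. Among the 10 genes themselves, r between S100a8 and S100a9 was 0.86 over the arrays and 0.31 after centring each session, and between Saa1 and Saa2 0.99 in both.

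Between 12 and 24 h none of the 10 genes changed past the threshold in either genotype (0 in limma with or without the session). At an unadjusted p under 0.05 the number was 0 in WT and 1 in KO without the session, and 3 and 2 with it. Over all genes, 0.187% were called in WT and 0.238% in KO without the session, and 3.81% and 5.64% with it. With the session, S100a9 joined Ptx3 among the genes lower at 24 h than at 6 h, by 2.45 ± 0.63 in WT (adjusted p = 0.0165) and 2.36 ± 0.63 in KO (adjusted p = 0.0182), against a background of 16.1% and 16% lower.

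The comparison of KO with WT asks whether the loss of miR-155, a microRNA that LPS induces in macrophages, changes these genes. None of the 10 differed between the genotypes at 0, 6, 12 or 24 h or on the mean of the 4 times (0 in limma with or without the session). Without the session the share of all genes called in either direction was 0.0113% at 12 h, 0.0170% on the mean and 0% at the other times. With it the share was 0.00566% at 0 h, 0.0113% at 6 h, 0.0170% at 12 h, 0% at 24 h and 0.0227% on the mean. At an unadjusted p under 0.05 there were 0 of the 10 without the session and 1 with it, Saa2 at 0 h, where the probe was not well above background. On the mean of the 4 times the difference, KO minus WT, ran from -0.17 for S100a9 to 0.40 for Camp and Slpi. With the session the 95% interval of that mean was -0.31 to 0.40 for Saa1, -0.11 to 0.91 for Slpi, -0.17 to 0.97 for Camp and -0.69 to 1.11 for Saa3. The widest interval was that of Lcn2, from -1.07 to 1.08. At 24 h the difference was highest for Camp, at 1.05 with an interval of -0.09 to 2.19, then Slpi, at 0.84 with an interval of -0.18 to 1.87. Camp was higher in KO than in WT in both sessions at 24 h, by 1.08 and 1.02, and Slpi by 1.36 and 0.32. Neither passed after adjustment, and the lowest adjusted p among the 10 genes at 24 h was 0.878 with the session. These values are of the probe that stands for each gene. The second Ptx3 probe was 1.03 ± 0.41 higher in KO at 24 h in limma's fit of all detected probes with the session (unadjusted p = 0.0307, adjusted p = 0.907). It was not well above background on any 24 h array. The first Ptx3 probe went the other way, with means of -6.48 in KO and -6.28 in WT.

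**Figure D5:**
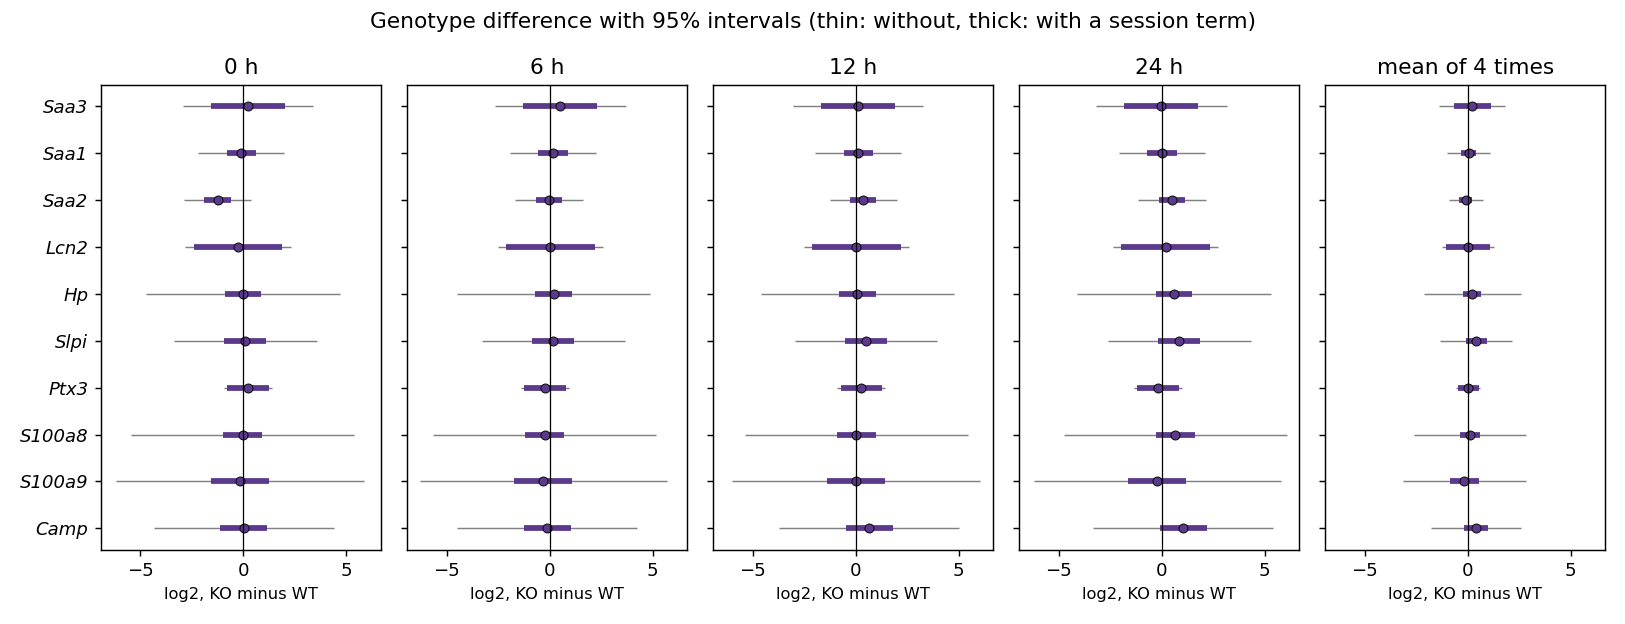
Log2 difference between miR-155 KO and WT macrophages for each gene at each time and on the mean of the 4 times, with 95% intervals from the fit without (thin line) and with (thick line) a session term. In the fit without the session all intervals include 0, and with it only that of Saa2 at 0 h, where the probe was not well above background, does not.

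The response to LPS was also compared between the genotypes, as the KO difference from 0 h minus the WT difference. For 0 of the 10 genes did it pass at 6, 12 or 24 h in either fit, where at most 0.00566% of all genes were called, nor in the joint F test over the 3 times (adjusted p = 0.999998 without and 0.999988 with the session). At an unadjusted p under 0.05 the number was 0 without the session and 1 at each time with it. The values ran from -0.42 to 1.23 at 6 h, from -0.11 to 1.62 at 12 h and from -0.40 to 1.75 at 24 h. The highest at each time was Saa2, and its 0 h level, on which the value rests, was not well above background in either genotype.

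Other acute-phase genes rose with these. Of 28 listed, 14 were tested, and 7, 6 and 5 of them were higher at 6, 12 and 24 h in WT and 7, 7 and 6 in KO without the session. Of all genes 12.6%, 9.69% and 5.62% were higher in WT and 12.3%, 9.50% and 4.96% in KO. With the session 9, 8 and 6 were higher in WT and 9, 9 and 6 in KO, and 2 were lower at 24 h in each. The shares of all genes higher were then 23.6%, 18.7% and 13.3% in WT and 21.0%, 19.6% and 11.6% in KO. At 24 h 14.1% of all genes were lower in WT and 12.4% in KO in that fit, close to 2 of 14. Without the session 5.38% and 4.94% were lower. The 1 that was lower without the session, at 24 h in both genotypes, was the metallothionein gene Mt1 (-3.32 ± 0.89 in WT, adjusted p = 0.0384, and -3.29 ± 0.89 in KO, adjusted p = 0.0425), named after its values were seen. The others named had the largest changes passing in both genotypes. Cfb, complement factor B, was 11.80 ± 0.70 higher at 12 h in WT (adjusted p = 8.18e-06) and 11.85 ± 0.70 in KO. C3, the central complement component, was 7.98 ± 0.55 higher at 6 h in WT (adjusted p = 1.02e-05) and 7.77 ± 0.55 in KO. Cp, the copper-carrying ferroxidase ceruloplasmin, was 7.51 ± 0.49 higher at 6 h in WT (adjusted p = 8.09e-06) and 7.0 ± 0.49 in KO. Hamp, the iron hormone hepcidin, was not well above background at 0 h and rose at least 7.06-fold at 6 h in WT (adjusted p = 0.00153) and 5.64-fold in KO (adjusted p = 0.000661). Orm1, an orosomucoid, was 3.84 ± 1.04 higher at 24 h in WT (adjusted p = 0.0395) and at least 6.12-fold higher in KO (adjusted p = 0.0312), where it was not well above background at 0 h. Of 7 hepatocyte markers, Apoa2 was tested and was well above background on all 16 arrays, while the other 6, Alb, Apoa1, Ttr, Fgb, Ahsg and Serpina1a, were not tested.

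Of 26 other antimicrobial genes listed, 18 were tested. In limma's test without the session 1 was higher and 1 lower at 6 h in each genotype, where 12.6% of all genes were higher and 12.8% lower in WT, and 1 was higher and 2 lower at 12 h. In KO 12.3% of all genes were higher and 13.8% lower at 6 h. At 12 h 9.69% were higher and 9.62% lower in WT, and 9.50% and 9.91% in KO. With the session 4 were higher and 4 lower at 12 h in WT, and 2 and 3 in KO, where 18.7% and 19.6% of all genes were higher. The share of all genes lower at 12 h in that fit is not given here, so the counts lower cannot be set against it. At 24 h 2 were lower in WT and 3 in KO without the session (5.38% and 4.94% of all genes). With the session 6 were lower in each genotype (14.1% and 12.4%), and 1 was higher in KO (11.6%). The ribonucleases Rnase4 and Ang were lower at 24 h, by 2.77 ± 0.31 and 2.05 ± 0.32 in WT and by 2.93 ± 0.31 and 2.20 ± 0.32 in KO. Wfdc17, a relative of Slpi by its protein fold, was 1.15 ± 0.32 higher at 12 h in WT (adjusted p = 0.0300) and 1.24 ± 0.32 in KO. Of 18 listed relatives of the 10 genes, 14 were tested, and 4 were lower at 24 h in WT and 6 in KO, with 1 higher in each. The shares of all genes were 5.38% and 4.94% lower and 5.62% and 4.96% higher. With the session 6 were lower in WT and 7 in KO, where 14.1% and 12.4% of all genes were lower. Of these relatives Apod, a lipocalin like Lcn2, was not well above background at 0 h and rose at least 16.4-fold at 12 h in WT (adjusted p = 0.000564) and 10.8-fold in KO (adjusted p = 0.00156). The pentraxin Nptx1 was lower at 24 h by 3.42 ± 0.47 in WT (adjusted p = 0.00109) and by 3.61 ± 0.47 in KO. The calcium-binding S100a4 was lower by 2.87 ± 0.59 in WT (adjusted p = 0.0104) and 3.34 ± 0.59 in KO, S100a6 by 1.57 ± 0.33 and 2.28 ± 0.33, and S100a1 by 1.71 ± 0.40 and 1.83 ± 0.40.

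Inducers and receptors of the acute-phase proteins were on the array as well. Of 33 listed, 29 were tested, and 13 were higher and 8 lower at 6 h in each genotype, and 15 and 8 with the session. Without the session 12.6% of all genes were higher and 12.8% lower in WT, and 12.3% and 13.8% in KO. With it 23.6% of all genes were higher in WT and 21.0% in KO. The share lower at 6 h in that fit is not given here, so the 8 lower with the session cannot be set against it. Il6, which drives the acute phase in the liver, was not well above background at 0 h and rose at least 12740-fold at 6 h in WT (adjusted p = 3.87e-06) and 14806-fold in KO (adjusted p = 4.36e-06). Il1b and Il1a, the interleukin 1 genes, were higher at 6 h by 8.89 ± 0.92 and 10.12 ± 1.30 in WT and by 9.33 ± 0.92 and 10.43 ± 1.30 in KO. Fpr2, a receptor for serum amyloid A, was 9.56 ± 0.53 higher at 12 h in WT (adjusted p = 6.1e-06) and 9.70 ± 0.53 in KO, and its relative Fpr1 was 9.85 ± 0.61 higher at 24 h in WT and 10.43 ± 0.61 in KO.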

How the data were processed

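Single-colour Agilent arrays (Cy3), 4 to a slide, were read with Agilent Feature Extraction 10.5.1.1, per the file headers. The deposited scanner files hold each spot's processed intensity, from which that software had subtracted background and spatial trends, per the file headers. The authors' deposited series table holds log2 values; it correlated with the log2 scanner intensities at r = 1, its median was 4.24 to 5.24 per array and its upper quartile 8.78 to 8.79. The genome build, normalization software and steps behind that table are not given in the sources used here, so it served only as an alternative.

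Control spots (1639 per array) and outlier spots (61 to 108) were removed, 0 spots were saturated, log2 intensities were averaged per probe, and each array's 75th percentile (270.8 to 729.9 scanner units) was subtracted. Per array, 56.0% to 67.6% of probes passed the software's background test (well above background); 26855 of 41077 probes were so on both arrays of at least 1 group, and the brightest probe stood for each of 17659 genes. Names came from RefSeq by accession (26869 probes), symbol (5559) or synonym (891), and otherwise from the file (7758). Probe positions are on mm9, and promoters are those of RefSeq on GRCm38.p6. A model of the 8 group means was fitted by limma 3.58.1 (R 4.3.3), with Benjamini-Hochberg adjustment over all genes and a threshold of 0.05; the code was tested on simulated data. Errors after ± are standard errors, from the fit named beside them or else from that without the session.

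Replicate numbers pair the arrays: between any 2 groups, arrays of one number deviated together (r of 0.40 to 0.84 over the 28 pairs, with a median of 0.58), and per the file headers each number is 1 scan session. All 10 genes are named, called or not, with the 3 most correlated genes of each and at most 5 per related list with the largest change passing in both genotypes. The genes and lists were chosen with earlier results of these data known. The number of arrays, 2 per group, limits the precision. Alternatives were a session or slide term, normexp, quantile and median scaling, no filter, other probes, the deposited table and leaving out each array.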

Additional observations from a re-analysis of the deposited data

How the results depend on the processing

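No value called under the main setting or an alternative changed its sign between them. The count of genes higher after 12 h of LPS in KO went from 5 to 8 with the replicate block (the session as a term) and with slide as a term, and to 3 with normexp background correction, which also gave 3 at 6 h in KO. With slide as a term the count at 6 h in WT was 8. The count of genes lower at 24 h went from 0 to 1 in WT and in KO with the replicate block and with slide as a term. Leaving out 1 array at a time left the counts higher at 5 and those lower at 24 h at 0 in those comparisons. Of 90 single-gene values, the replicate block kept 70 on their side of the threshold and brought 20 past it. Normexp correction took 10 below it, 8 of them of Ptx3. The deposited series table gave the same verdict for all 90. That table correlated with the log2 scanner intensities at r = 1 and had an upper quartile of 8.78 to 8.79 on every array. Its values are thus almost those of the main setting apart from a constant, and its verdicts are not a separate check. Of 1440 values with 1 array left out, 13 lost their call, all for Ptx3 at 24 h against 0 h, and 108 that were not called changed sign. Uncalled values also changed sign with normexp (8), slide as a term (8), quantile normalization (5) and median scaling (4). The cause of these changes was not tested. Scaling to the median moved the median difference of all genes to between 0.14 and 0.33 in the LPS comparisons, normexp to between 0.11 and 0.36, and quantile normalization to between -0.15 and -0.01. Signals near background limit Saa2, the second Saa1 probe and Ptx3, whose low groups have only a bound.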
